A study of Mus musculus with 9 samples.

Results

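Inhibitory receptors of T cells were followed through 10 genes, Ctla4, Tigit, Havcr2, Pdcd1, Lag3, Btla, Cd160, Cd200r1, Lilr4b and Cd5, across sorted mouse CD4 T cells of the chronic and the acute stage of allergic airway inflammation and naive cells. The genes were chosen by name, as surface receptors known or classed as inhibitory, with earlier results of these data known. Each was read from the probe sets that name it alone, which gave 10 probe sets of 34760 and 10 genes of 19937. Chronic Th2 cells were CD4+ CD69+ ST2+ cells taken from lungs on day 104, when ovalbumin aerosol had been given for 12 weeks. Acute Th2 cells were sorted by the same markers from lungs on day 29, after aerosol on 3 days in a row. Naive cells were sorted by a gate that included CD4+ and CD44- from spleens on day 29 of a sham treatment. Ovalbumin mice had been sensitised by 3 intraperitoneal injections of 10 µg ovalbumin with 1.5 mg aluminium hydroxide, on days 1, 14 and 21, and the aerosol held 1% ovalbumin. Cells of all 3 groups were stimulated for 8 h with anti-CD3 and anti-CD28 after the sort. Each group had 3 arrays, which the labels call biological replicates. The labels name no strain, age or pooling of mice, so that p-values measure the spread between these arrays. Perfusion and enzyme digestion are described for lungs, with no protocol of its own for spleens. Tissue, sort gate, treatment and stage therefore cannot be told apart between Th2 and naive cells, nor can day where chronic Th2 cells are compared. Between the Th2 groups, day and stage cannot be told apart.

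Inhibitory receptors lower the signal that a T cell draws from its antigen receptor and from CD28. CTLA-4 takes CD80 and CD86 away from CD28. PD-1, TIGIT and BTLA carry tyrosine motifs in their tails that bind phosphatases such as SHP-1, TIM-3 acts through other tail tyrosines, and LAG-3 binds MHC class II. Most of these genes are low in resting naive T cells and are induced by stimulation, and several stay high in regulatory and chronically stimulated T cells. 

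The values are log2 intensities that the authors normalised with RMA, and the number of arrays limits the precision. Naive replicate 1 stood apart, with a Pearson correlation over all genes of 0.939 and 0.941 with naive replicates 2 and 3, which correlated at 0.991 with each other. Il2, the growth factor gene that stimulated T cells switch on, had a level of 5.07 on naive replicate 1, against 11.33 and 11.27 on naive replicates 2 and 3. On that array the 12 stimulation-induced genes listed for this work had a median level of 8.78, against 11.42 and 11.49 on the other naive arrays. Chronic Th2 replicate 3 correlated more with acute Th2 replicate 3 (0.991) than with the other chronic Th2 arrays (0.981 and 0.985). As a measure of background served the 1015 olfactory receptor genes, whose mean levels had a 95th percentile of 6.53. Of the markers of the labelled cells, the 6 measured Th2 markers rose in both Th2 groups (Gata3, the Th2 lineage factor, by 2.98 in chronic and 3.07 in acute Th2 cells), and Cd44, absent from the naive sort gate, rose by 1.89 and 1.93. Cd69, a marker of the Th2 gate that stimulation also induces, ran the other way, at 10.24, 10.22 and 11.14 in chronic Th2 cells, 10.77, 11.34 and 11.23 in acute Th2 cells, and 10.59, 12.08 and 12.20 in naive cells. Its log2 differences of -1.09 and -0.51 did not pass (adjusted p = 0.158 and 0.683), but did without naive replicate 1 (-1.61 and -1.02, adjusted p = 0.00462 and 0.0443). Il1rl1, which encodes ST2, is not analysed here. Markers of CD8 T cells, NK cells, B cells, macrophages, dendritic cells and mast cells or basophils had median levels between 4.54 and 7.04 per array. Of these markers Cd8b1, Cd79b, Cd68 and Batf3 had means over the 9 arrays above 6.53, and only Cd79a was called, lower in chronic Th2 cells (log2 difference -0.61, adjusted p = 0.0459).

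In chronic Th2 cells, 6 of the 10 genes rose and 2 fell against naive cells. In acute Th2 cells, 6 rose and 1 fell. The 6 were the same in both comparisons: Ctla4, Tigit, Havcr2, Lag3, Cd200r1 and Lilr4b. Cd5 fell in both, Btla fell in chronic Th2 cells, and Pdcd1 and Cd160 passed in neither. A gene was called at a limma adjusted p under 0.05 over all 19937 genes. By that rule 7.88% of all genes were called between chronic Th2 and naive cells, 3.68% higher and 4.2% lower, and 5.87% between acute Th2 and naive cells, 3.67% higher and 2.2% lower. The median log2 difference of the 10 genes was 2.95 in chronic and 2.67 in acute Th2 cells, against 0.043 and -0.030 over all genes. Arrays of chronic Th2 and naive cells did not overlap for 7 of the 10 genes upward and 3 downward, where 27.9% of all genes were so separated (15.6% upward, 12.3% downward). For acute Th2 and naive cells these were 7 and 1, where 19.7% of all genes were (8.8% upward, 10.9% downward). Both comparisons share the 3 naive arrays. Since the 10 genes were chosen with earlier results known, the values over all genes are given for scale and test nothing.

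**Figure D1:**
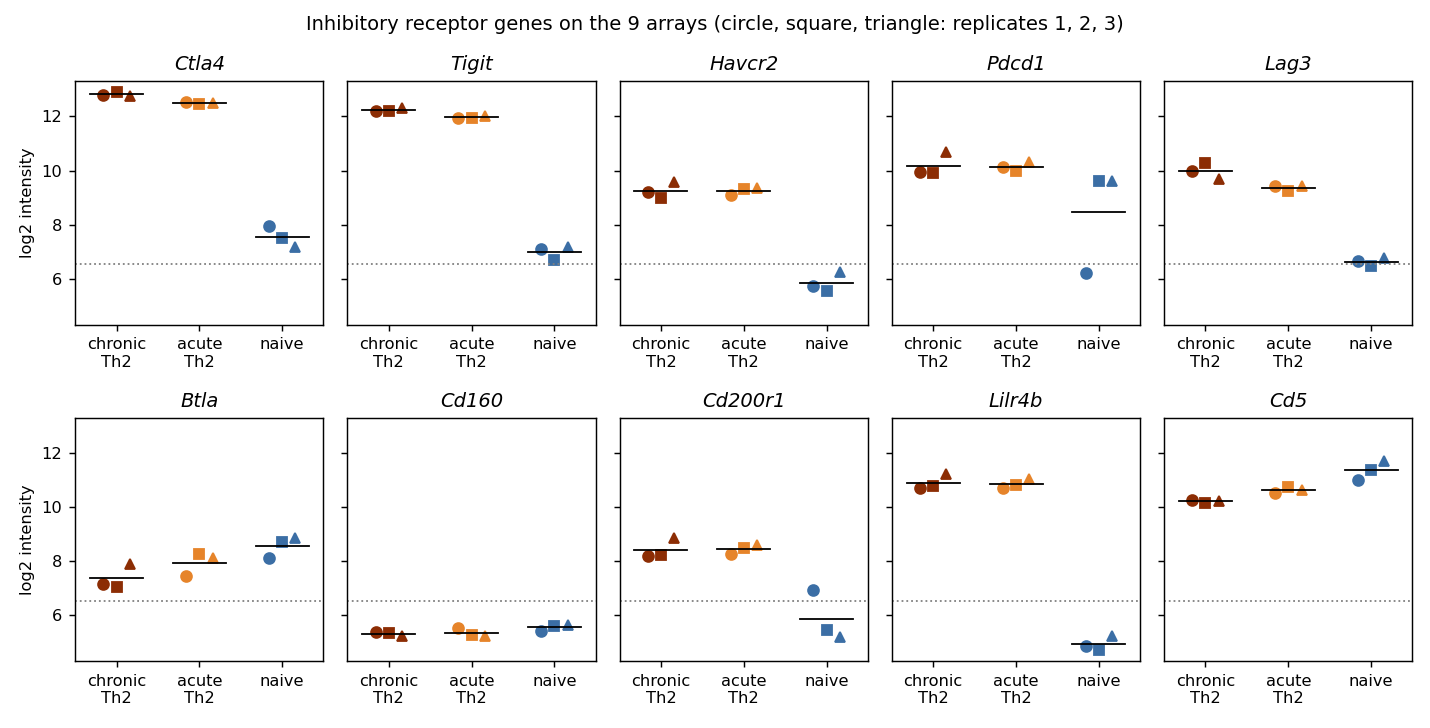
Log2 intensity (y axis) of the 10 genes on each array, by group (x axis); circle, square and triangle are replicates 1, 2 and 3, the black line is the group mean, and the dotted line is the 95th percentile of olfactory receptor genes (6.53). Ctla4 and Tigit lie above 11.9 on every Th2 array and under 8.0 on every naive array, while Pdcd1 on naive replicate 1 (6.21) lies far below the other 8 arrays.

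Ctla4 and Tigit rose by similar amounts from naive to Th2 cells. Within groups their order differed. Chronic Th2 replicate 3 and naive replicate 3 were the highest of their groups for Tigit and the lowest for Ctla4. Acute Th2 replicate 1 was the highest for Ctla4 and the lowest for Tigit. CTLA-4 competes with CD28 for its ligands, and TIGIT binds CD155, the product of Pvr. Ctla4 had levels of 12.79, 12.90 and 12.77 in chronic Th2 cells, of 12.55, 12.47 and 12.49 in acute Th2 cells, and of 7.96, 7.51 and 7.16 in naive cells. Tigit had levels of 12.20, 12.20 and 12.31 in chronic Th2 cells, of 11.92, 11.95 and 12.02 in acute Th2 cells, and of 7.09, 6.68 and 7.19 in naive cells. For both genes every chronic Th2 array lay above every acute Th2 array, and every acute Th2 array far above the naive ones. Ctla4 was higher than in naive cells by 5.28 in chronic Th2 cells (SE 0.17, adjusted p = 5.32e-07) and by 4.96 in acute Th2 cells (SE 0.17, adjusted p = 9.59e-07). These are 38.8-fold and 31.0-fold differences in intensity. Tigit was higher by 5.25 in chronic Th2 cells (SE 0.13, adjusted p = 8.47e-08) and by 4.98 in acute Th2 cells (SE 0.13, adjusted p = 1.74e-07). The spread of these genes in Th2 cells was small: the SD was 0.07 for Ctla4 and 0.06 for Tigit in chronic Th2 cells, and 0.04 and 0.05 in acute Th2 cells.

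The sequences before the start sites of these genes are shown because Ctla4 and Tigit rose by similar amounts against naive cells. A further reason is that calcium and protein kinase signals of the antigen receptor, which the stimulation step sets off, act through NFAT and AP-1. The RefSeq promoter table held windows for 8 of the 10 genes, 9 in all, and none for Lag3 and Cd200r1. Each sequence below is the 250 bases before a transcript start, 5′ to 3′ on the gene's strand. Capitals mark the NFAT core, GGAAA on either strand, and the AP-1 motif, TGANTCA on either strand.
Ctla4, GRCm38.p6 chr1:60908775-60909024, plus strand: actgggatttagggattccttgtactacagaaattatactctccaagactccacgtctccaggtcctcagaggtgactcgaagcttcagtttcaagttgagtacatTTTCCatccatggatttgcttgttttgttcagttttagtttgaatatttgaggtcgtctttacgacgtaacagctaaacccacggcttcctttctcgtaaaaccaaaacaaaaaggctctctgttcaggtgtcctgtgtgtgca
Tigit, GRCm38.p6 chr16:43664185-43664434, minus strand: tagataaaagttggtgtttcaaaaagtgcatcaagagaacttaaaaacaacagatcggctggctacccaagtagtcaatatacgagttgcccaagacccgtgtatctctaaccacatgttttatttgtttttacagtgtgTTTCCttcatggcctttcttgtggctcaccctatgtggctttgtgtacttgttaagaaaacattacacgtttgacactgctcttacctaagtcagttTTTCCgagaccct
Havcr2, GRCm38.p6 chr11:46454681-46454930, plus strand: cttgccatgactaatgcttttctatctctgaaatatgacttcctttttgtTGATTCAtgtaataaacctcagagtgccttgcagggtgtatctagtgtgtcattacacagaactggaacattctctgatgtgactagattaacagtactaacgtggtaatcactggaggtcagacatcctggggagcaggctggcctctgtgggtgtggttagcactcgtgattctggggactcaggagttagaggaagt
Pdcd1, GRCm38.p6 chr1:94052554-94052803, minus strand: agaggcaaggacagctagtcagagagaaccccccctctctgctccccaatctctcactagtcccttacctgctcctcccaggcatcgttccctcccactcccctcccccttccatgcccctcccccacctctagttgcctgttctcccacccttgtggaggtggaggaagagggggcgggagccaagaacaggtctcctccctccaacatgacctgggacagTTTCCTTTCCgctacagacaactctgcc
The Ctla4 window held 1 NFAT core, and those of Tigit and Pdcd1 held 2 each, which lie side by side in Pdcd1. Havcr2 had no NFAT core and 1 AP-1 match. Of the other members, Lilr4b had 2 NFAT cores, Cd160 had 1 in 1 of its 2 windows, and Btla and Cd5 had none. Over the 32851 windows of the table, 55.6% held an NFAT core and 6.75% an AP-1 match. Of the 9 windows only that of Havcr2 held an AP-1 match, so that an overlap with an NFAT core could not occur. A match describes the letters and not binding. The windows of Tigit, Btla and Cd5 lie before starts that are not the outer end of the annotated gene. The same holds for the Cd160 window with the NFAT core.

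Havcr2 and Lag3 rose by about the same amount in chronic Th2 cells. TIM-3, the product of Havcr2, binds galectin-9 and phosphatidylserine, and LAG-3 resembles CD4 in structure. Havcr2 had levels of 9.22, 8.98 and 9.58 in chronic Th2 cells, of 9.09, 9.33 and 9.34 in acute Th2 cells, and of 5.72, 5.54 and 6.23 in naive cells. The Th2 groups overlapped, and all 3 naive arrays lay under the background level of 6.53. Havcr2 was higher by 3.43 in chronic Th2 cells (SE 0.20, adjusted p = 2.12e-05) and by 3.42 in acute Th2 cells (SE 0.20, adjusted p = 2.27e-05). Lag3 had levels of 9.98, 10.29 and 9.69 in chronic Th2 cells, of 9.44, 9.25 and 9.42 in acute Th2 cells, and of 6.66, 6.47 and 6.77 in naive cells. All 3 groups were separate, with chronic Th2 cells the highest and naive cells at the background level. Lag3 was higher by 3.35 in chronic Th2 cells (SE 0.15, adjusted p = 4.21e-06) and by 2.74 in acute Th2 cells (SE 0.15, adjusted p = 1.51e-05). Where naive levels lie at or under background, these sizes are those of intensities and can understate the change in RNA.

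Lilr4b and Cd200r1 are better known from myeloid and mast cells. Lilr4b encodes gp49A, a close relative of gp49B, which Lilrb4a encodes. In mice gp49B carries inhibitory tail motifs, and gp49A is known to lack them. Lilr4b had levels of 10.69, 10.77 and 11.22 in chronic Th2 cells, of 10.73, 10.83 and 11.06 in acute Th2 cells, and of 4.87, 4.71 and 5.25 in naive cells. The Th2 groups overlapped, and no naive array rose above background. The differences of 5.95 in chronic Th2 cells (SE 0.18, adjusted p = 3.48e-07) and 5.93 in acute Th2 cells (SE 0.18, adjusted p = 3.87e-07) ranked 5 and 6 among the upward differences of all genes. Lilrb4a, the next gene along the chromosome, had levels of 9.88, 9.97 and 10.50 in chronic Th2 cells, of 9.97, 10.10 and 10.24 in acute Th2 cells, and of 5.07, 4.91 and 5.73 in naive cells. It rose by 4.88 in chronic and by 4.87 in acute Th2 cells (adjusted p = 5.24e-06 and 5.37e-06). The genes are similar in sequence, and how much of either signal comes from the other cannot be told apart with the files used here.

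CD200R1 binds CD200 and lowers the activity of myeloid cells and T cells. Cd200r1 had levels of 8.20, 8.22 and 8.86 in chronic Th2 cells, of 8.26, 8.50 and 8.62 in acute Th2 cells, and of 6.93, 5.45 and 5.22 in naive cells. Naive replicate 1 was the highest naive array, yet lay under every Th2 array. Cd200r1 was higher by 2.56 in chronic Th2 cells (SE 0.41, adjusted p = 0.00683) and by 2.59 in acute Th2 cells (SE 0.41, adjusted p = 0.00656). The differences were 3.09 and 3.13 without naive replicate 1. Markers of macrophages and mast cells, which also use these 2 genes, did not pass in limma in either comparison with naive cells. Of 8 macrophage markers 2 had an unadjusted p under 0.05 in chronic and 1 in acute Th2 cells, and of 8 mast cell and basophil markers 2 and 0, where 25.6% and 16.3% of all genes had one. Averaged over the 9 arrays, all 8 mast cell and basophil markers were under background, although Kit had means of 6.63 in acute Th2 and 6.55 in naive cells.

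Pdcd1 turned on a single array. PD-1 is induced within hours of antigen receptor signals. Pdcd1 had levels of 9.96, 9.89 and 10.70 in chronic Th2 cells, of 10.13, 10.00 and 10.30 in acute Th2 cells, and of 6.21, 9.62 and 9.61 in naive cells. Every Th2 array lay above every naive array, but naive replicates 2 and 3 lay close to the lowest chronic Th2 array and naive replicate 1 far below. The differences of 1.70 in chronic Th2 cells (SE 0.80, adjusted p = 0.219) and 1.66 in acute Th2 cells (SE 0.80, adjusted p = 0.365) did not pass. Without naive replicate 1 they were 0.57 (adjusted p = 0.119) and 0.53 (adjusted p = 0.198). With chronic Th2 replicate 3 left out as well, the acute difference of 0.53 passed (adjusted p = 0.0141). The 95% interval of the difference, from -0.12 to 3.52 in chronic and from -0.16 to 3.48 in acute Th2 cells, spans 0 and a large rise alike. The SD of Pdcd1 in naive cells, 1.96, was larger than that of 99.9% of genes. On naive replicate 1 Cd274, which encodes the PD-1 ligand PD-L1, was also low, at 8.26 against 10.80 and 10.90 on naive replicates 2 and 3, as was Il2. Their part in the Pdcd1 values was not tested.

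Btla and Cd5 ran the other way. BTLA binds HVEM, and CD5 is a scavenger-type receptor that dampens antigen receptor signals from the thymus onward. Cd5 had levels of 10.26, 10.17 and 10.24 in chronic Th2 cells, of 10.53, 10.76 and 10.64 in acute Th2 cells, and of 11.01, 11.39 and 11.72 in naive cells. The 3 groups did not overlap, with chronic Th2 cells the lowest. Cd5 was lower than in naive cells by 1.15 in chronic Th2 cells (log2 difference -1.15, SE 0.16, adjusted p = 0.00374). In acute Th2 cells the log2 difference was -0.72 (SE 0.16, adjusted p = 0.0359), which kept its call in only 1 of the 9 fits that leave out an array each, that without naive replicate 1; in the others the adjusted p reached 0.128. Btla had levels of 7.15, 7.06 and 7.90 in chronic Th2 cells, of 7.44, 8.26 and 8.12 in acute Th2 cells, and of 8.12, 8.73 and 8.84 in naive cells. Chronic Th2 and naive arrays were separate, while acute Th2 arrays overlapped with both. The log2 difference was -1.19 in chronic Th2 cells (SE 0.30, adjusted p = 0.0471) and -0.62 in acute Th2 cells (SE 0.30, adjusted p = 0.366). The call in chronic Th2 cells was lost without naive replicate 2 or 3, acute Th2 replicate 2 or 3, or chronic Th2 replicate 1 or 2, where the adjusted p reached 0.181.

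Cd160, a receptor of cytotoxic lymphocytes that also binds HVEM, stayed at background. Its levels were 5.38, 5.35 and 5.25 in chronic Th2 cells, 5.53, 5.27 and 5.23 in acute Th2 cells, and 5.43, 5.61 and 5.65 in naive cells. All 9 arrays lay under 6.53, so that the log2 differences of -0.24 in chronic and -0.22 in acute Th2 cells (adjusted p = 0.199 and 0.36) say little about RNA. NK cell markers, which share cells with Cd160, had median levels of 4.63 to 4.68 in chronic Th2 cells, 4.54 to 4.57 in acute Th2 cells and 4.58 to 4.69 in naive cells, and none of the 6 measured had a mean above background.

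**Figure D2:**
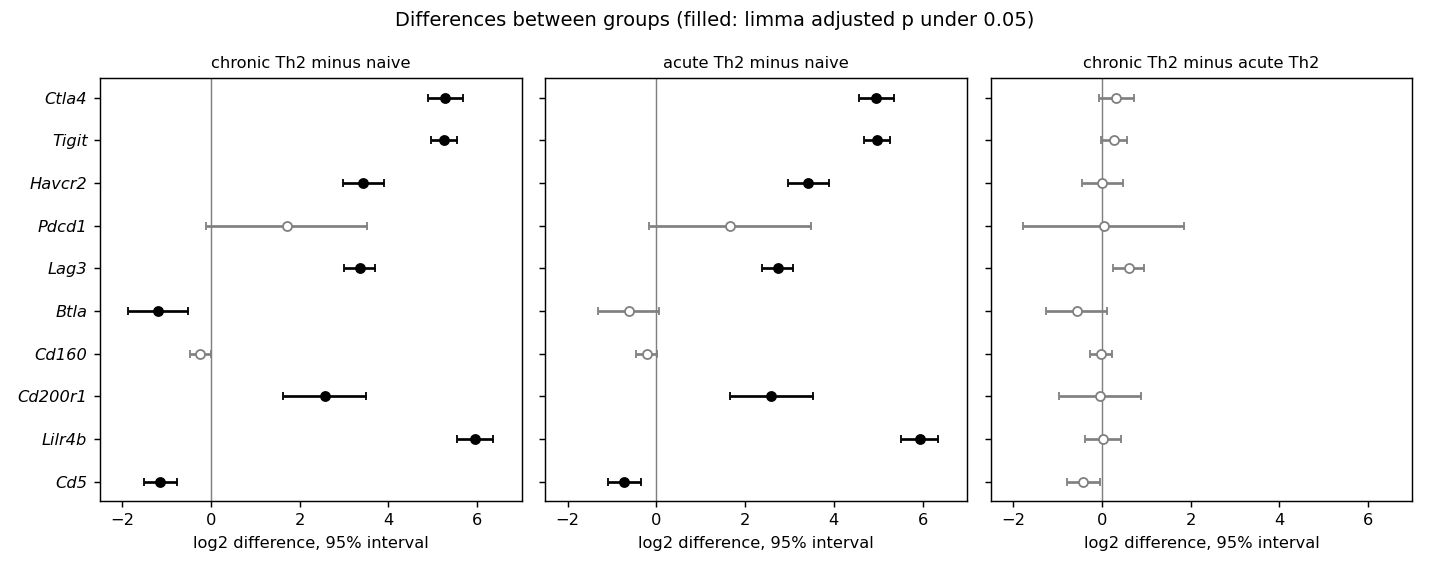
Log2 differences (x axis) with 95% intervals of the 10 genes (y axis) in the 3 comparisons; filled points have a limma adjusted p under 0.05. Lilr4b, Ctla4 and Tigit lie near 5 to 6 in both comparisons with naive cells, Pdcd1 has the widest intervals, and no gene is filled between chronic and acute Th2 cells.

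Between chronic and acute Th2 cells none of the 10 genes passed in limma. Over all genes 6 were called, 0.0301%, with 0.015% higher and 0.015% lower. At an unadjusted p under 0.05 there were 2 of the 10, Lag3 and Cd5, where 14.9% of all genes were. Lag3 was higher in chronic Th2 cells by 0.61 (SE 0.15, 95% interval 0.26 to 0.96, adjusted p = 0.322), and Cd5 had a log2 difference of -0.42 (SE 0.16, 95% interval -0.79 to -0.052, adjusted p = 0.322). Ctla4 had a difference of 0.32 (95% interval -0.075 to 0.72) and Tigit one of 0.27 (95% interval -0.023 to 0.56). When arrays were centred on olfactory receptor genes, these became -0.057 and -0.11, and Lag3 and Cd5 had differences of 0.24 and -0.80. Arrays of the groups did not overlap for 3 of the 10 genes upward (Ctla4, Tigit, Lag3) and for 1 downward (Cd5), where 22.7% of all genes were so separated (11.8% upward, 10.8% downward). Differences of Havcr2 (0.0074), Lilr4b (0.022), Cd200r1 (-0.034), Pdcd1 (0.043) and Cd160 (-0.017) were near 0, with intervals from -0.46 to 0.47, -0.39 to 0.43, -0.96 to 0.89, -1.78 to 1.86 and -0.26 to 0.22. For Btla the difference was -0.57 (95% interval -1.25 to 0.12). The SE and intervals of this comparison pool the spread of all 3 groups, naive cells included. The SD of Ctla4 was 0.40 in naive, 0.07 in chronic Th2 and 0.04 in acute Th2 cells. That of Pdcd1 was 1.96 in naive, 0.45 in chronic Th2 and 0.15 in acute Th2 cells. In a fit of only the 6 Th2 arrays, none of the 10 genes passed either.

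Chronic Th2 replicate 3 was set against the rest of its group over these genes. It was the highest chronic Th2 array for 6 of the 10 genes, Tigit, Havcr2, Pdcd1, Btla, Cd200r1 and Lilr4b, and the lowest for Ctla4, Lag3 and Cd160. Its root mean square distance over the 10 genes was 0.49 to the mean of the other chronic Th2 arrays and 0.34 to the acute Th2 mean. The other chronic Th2 arrays lay nearer to their own group, at 0.21 against 0.38 and at 0.31 against 0.48. Acute Th2 replicate 1 also lay nearer to the other group, at 0.26 to the chronic Th2 mean against 0.30 to the other acute Th2 arrays. Il2 ran alongside, at 9.95, 8.95 and 11.70 on chronic Th2 replicates 1, 2 and 3 and at 10.94, 12.01 and 11.69 in acute Th2 cells.

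Ligands of the receptors, many of which T cells carry themselves, had smaller median differences, 0.16 in chronic and -0.039 in acute Th2 cells. Of 16 ligand genes, 1 rose and 2 fell in chronic Th2 cells and 2 rose and 2 fell in acute Th2 cells. Over all genes 3.68% rose and 4.2% fell in chronic Th2 cells, and 3.67% rose and 2.2% fell in acute Th2 cells. Lgals3, which encodes the LAG-3 ligand galectin-3, had levels of 8.69 ± 0.10 in chronic Th2, 9.02 ± 0.28 in acute Th2 and 7.03 ± 0.14 in naive cells (SD, n = 3 each), and rose by 1.67 and 1.99. Pvr, which encodes the TIGIT ligand CD155, fell to 6.32 ± 0.27 in chronic Th2 and 6.84 ± 0.23 in acute Th2 cells, against 8.04 ± 0.47 in naive cells (SD, n = 3 each; adjusted p = 0.00338 and 0.0209). Tnfrsf14, which encodes HVEM, the ligand of BTLA and CD160, had log2 differences of -0.89 and -0.76 (adjusted p = 0.00221 and 0.00521). Cd80, a ligand of CTLA-4, rose in acute Th2 cells by 0.76 (adjusted p = 0.0297). In acute Th2 cells the call of Pvr was lost without acute Th2 replicate 1, 2 or 3. That of Cd80 was lost without acute Th2 replicate 2 or 3, or chronic Th2 replicate 2 or 3. Both were lost with arrays centred on olfactory receptor genes. Cd200, the ligand gene of CD200R1, was at 9.73, 9.87 and 10.12 in chronic Th2 cells, at 9.68, 10.13 and 10.08 in acute Th2 cells, and at 6.25, 9.28 and 8.96 in naive cells, with naive replicate 1 again the low array. The ligands called numbered 5 in chronic Th2 cells without naive replicate 1 or without chronic Th2 replicate 3, and in acute Th2 cells 7 without naive replicate 1 and 2 without acute Th2 replicate 2 or 3. Without naive replicate 1, 17.2% of all genes were called in chronic and 12.2% in acute Th2 cells, and 10.3% in chronic Th2 cells without chronic Th2 replicate 3. Without acute Th2 replicate 2 or 3, 3.42% or 3.28% were called in acute Th2 cells.

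**Figure D3:**
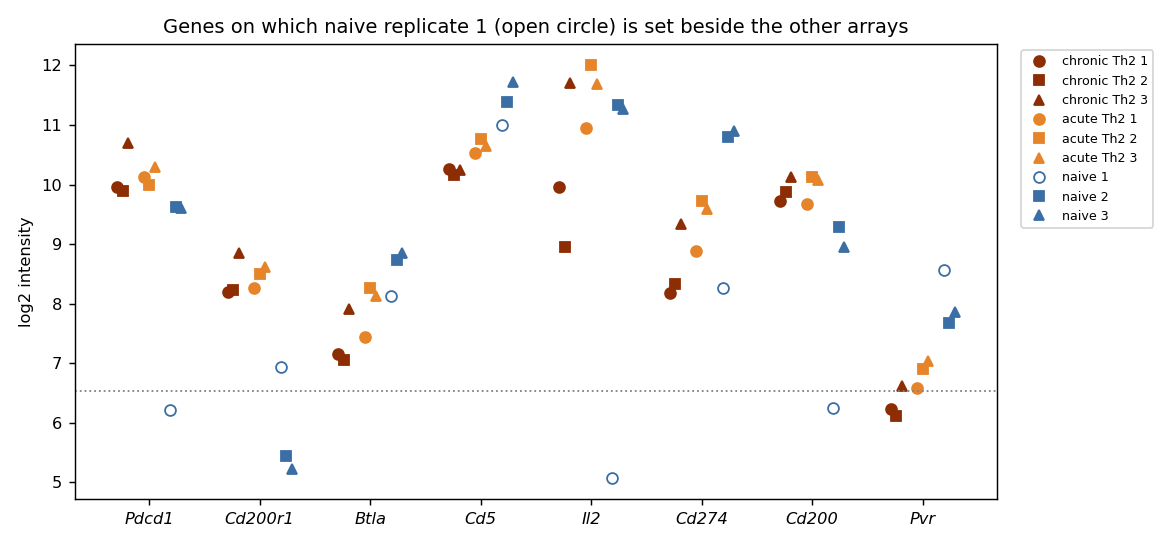
Log2 intensity (y axis) of 8 genes (x axis) on every array; colours are groups, symbols are replicates 1, 2 and 3, and the open circle is naive replicate 1. That array is low for Pdcd1 (6.21), Il2 (5.07) and Cd200 (6.25) and high for Cd200r1 (6.93) and Pvr (8.56) beside the other naive arrays.

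Activating partners of the receptors, not all of which share a ligand with them, formed a list of 8 genes. In each comparison 1 was called, where 7.88% of all genes were in chronic and 5.87% in acute Th2 cells. It was Icos, a CD28 relative that boosts helper cytokines, with levels of 12.51, 12.60 and 12.50 in chronic Th2 cells, of 12.21, 12.23 and 12.23 in acute Th2 cells, and of 7.75, 8.94 and 8.91 in naive cells. It rose in chronic Th2 cells (95% interval of the log2 difference 3.37 to 4.63, adjusted p = 5.74e-05) and in acute Th2 cells (3.06 to 4.32, adjusted p = 9.14e-05). Cd28 had differences of 0.84 and 1.01 (adjusted p = 0.134 and 0.12), and was called without naive replicate 1, at 1.26 and 1.42. Cd226, the activating receptor for CD155, had levels of 5.92, 5.88 and 6.23 in chronic Th2 cells, of 5.98, 7.02 and 6.85 in acute Th2 cells, and of 8.32, 6.41 and 6.25 in naive cells. Without naive replicate 1 the calls of this list numbered 6 in chronic and 5 in acute Th2 cells, where 17.2% and 12.2% of all genes were called.

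Cytoplasmic partners fell where they changed. Of 15 adaptor and phosphatase genes, 5 fell and 0 rose in chronic Th2 cells, and 3 fell and 0 rose in acute Th2 cells (median -0.37 and -0.22). Over all genes 4.2% fell in chronic and 2.2% in acute Th2 cells. Ptpn6 encodes SHP-1, a phosphatase recruited by tails such as that of BTLA. Its levels were 7.87, 7.88 and 7.74 in chronic Th2 cells, 7.77, 7.83 and 7.75 in acute Th2 cells, and 9.18, 9.18 and 9.31 in naive cells. The Th2 arrays overlapped with each other and lay well under the naive ones, with log2 differences of -1.39 and -1.44 (adjusted p = 1.74e-05 and 1.47e-05). Cblb, a ubiquitin ligase that restrains T cell activation, had differences of -1.39 and -1.52 (adjusted p = 0.0199 and 0.0141). Fyn, a Src family kinase, had differences of -1.04 and -0.96. In chronic Th2 cells Csk, the kinase that restrains Src kinases, fell by 0.80 on the log2 scale and Bag6, a TIM-3 partner, by 0.50. Ptpn11, which encodes SHP-2, the main phosphatase of PD-1, did not pass, with differences of -0.31 and -0.016. It was called in chronic Th2 cells without naive replicate 1 (-0.53, adjusted p = 0.0322). Calls numbered 3 in chronic Th2 cells without chronic Th2 replicate 1, where 3.68% of all genes were called. Without naive replicate 1 they numbered 7 (6 lower, 1 higher) in chronic and 6 (4 lower, 2 higher) in acute Th2 cells, where 17.2% and 12.2% of all genes were called.

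Of 17 transcription factor genes tied to inhibitory receptors, 8 rose and 0 fell in each comparison, with a median of 1.11 in chronic and 1.41 in acute Th2 cells. Over all genes 3.68% rose in chronic and 3.67% in acute Th2 cells. Maf, which encodes c-Maf, had levels of 11.25 ± 0.28 in chronic Th2, 10.65 ± 0.19 in acute Th2 and 6.44 ± 0.40 in naive cells (SD, n = 3 each), and rose by 4.81 and 4.21. Prdm1, which encodes the repressor Blimp-1, rose by 3.97 and 3.60 (adjusted p = 8.23e-08 and 1.74e-07). Batf, an AP-1 partner of IRF4, rose by 2.30 and 2.54, and Tox2 by 2.21 and 2.34. Id2 rose by 2.28 and 1.96, and Tbx21, Foxp3 and Ikzf2 were the other risers. The call of Tbx21 was lost in both comparisons without chronic Th2 replicate 1 or 2. In acute Th2 cells it was also lost without naive replicate 3, without acute Th2 replicate 1, 2 or 3, and with the replicate block. Tox, a factor of chronically stimulated T cells, did not pass, with differences of 0.38 and -0.018. Nr4a1, Nr4a2 and Nr4a3, which antigen receptor signals induce, did not pass with all 9 arrays. Nr4a1 had levels of 10.71, 10.71 and 12.12 in chronic Th2 cells, of 11.22, 11.45 and 11.56 in acute Th2 cells, and of 10.72, 12.66 and 12.88 in naive cells. Centred on olfactory receptor genes, 6 rose and 2 fell in chronic Th2 cells. Without naive replicate 1 this list had 10 higher and 4 lower in chronic and 9 higher and 4 lower in acute Th2 cells, where 17.2% and 12.2% of all genes were called. Among the lower ones were Nr4a1 (-1.59 and -1.36), Nr4a2 (-2.30 and -2.06) and Nr4a3 (-1.89 and -1.71).

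Among 21 further molecules of inhibitory kind, 18 were called in neither comparison. In both, 3 rose and 0 fell: Lilrb4a, Klrg1 and Entpd1, with medians of 0.14 and 0.034 over the list. Over all genes 3.68% rose in chronic and 3.67% in acute Th2 cells. Klrg1, an inhibitory receptor that binds cadherins, had levels of 8.38 ± 0.13 in chronic Th2, 8.61 ± 0.35 in acute Th2 and 5.66 ± 0.35 in naive cells (SD, n = 3 each), and rose by 2.72 and 2.94. Entpd1 encodes CD39, an enzyme that breaks down extracellular ATP, and rose by 2.82 and 3.08. Without chronic Th2 replicate 3 the calls in chronic Th2 cells numbered 5, where 10.3% of all genes were called.

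Regulatory T cells carry CTLA-4 and TIGIT as well, and some carry ST2. Of 8 regulatory T cell markers, all of them above background on average, 4 rose and 0 fell in each comparison: Foxp3, Ikzf2, Ikzf4 and Nrp1. Foxp3 and Ikzf2 are also counted among the transcription factors. Over all genes 3.68% rose in chronic and 3.67% in acute Th2 cells. With arrays centred on olfactory receptor genes, 1 of the 8 markers rose (Ikzf4) and 2 fell (Gpr83 and Izumo1r) in chronic Th2 cells. Foxp3 had levels of 10.29, 10.08 and 10.26 in chronic Th2 cells, of 10.10, 10.72 and 10.67 in acute Th2 cells, and of 8.96, 9.03 and 9.26 in naive cells. It rose by 1.13 in chronic and 1.41 in acute Th2 cells (adjusted p = 0.00502 and 0.00148). The median level of the 8 markers ran from 8.46 to 8.65 on chronic Th2 arrays, from 8.54 to 8.83 on acute Th2 arrays and from 8.16 to 8.87 on naive arrays. The markers' part in the rises of Ctla4 and Tigit was not tested, and in sorted bulk cells a larger share of such cells cannot be told apart from more RNA per cell.

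**Figure D4:**
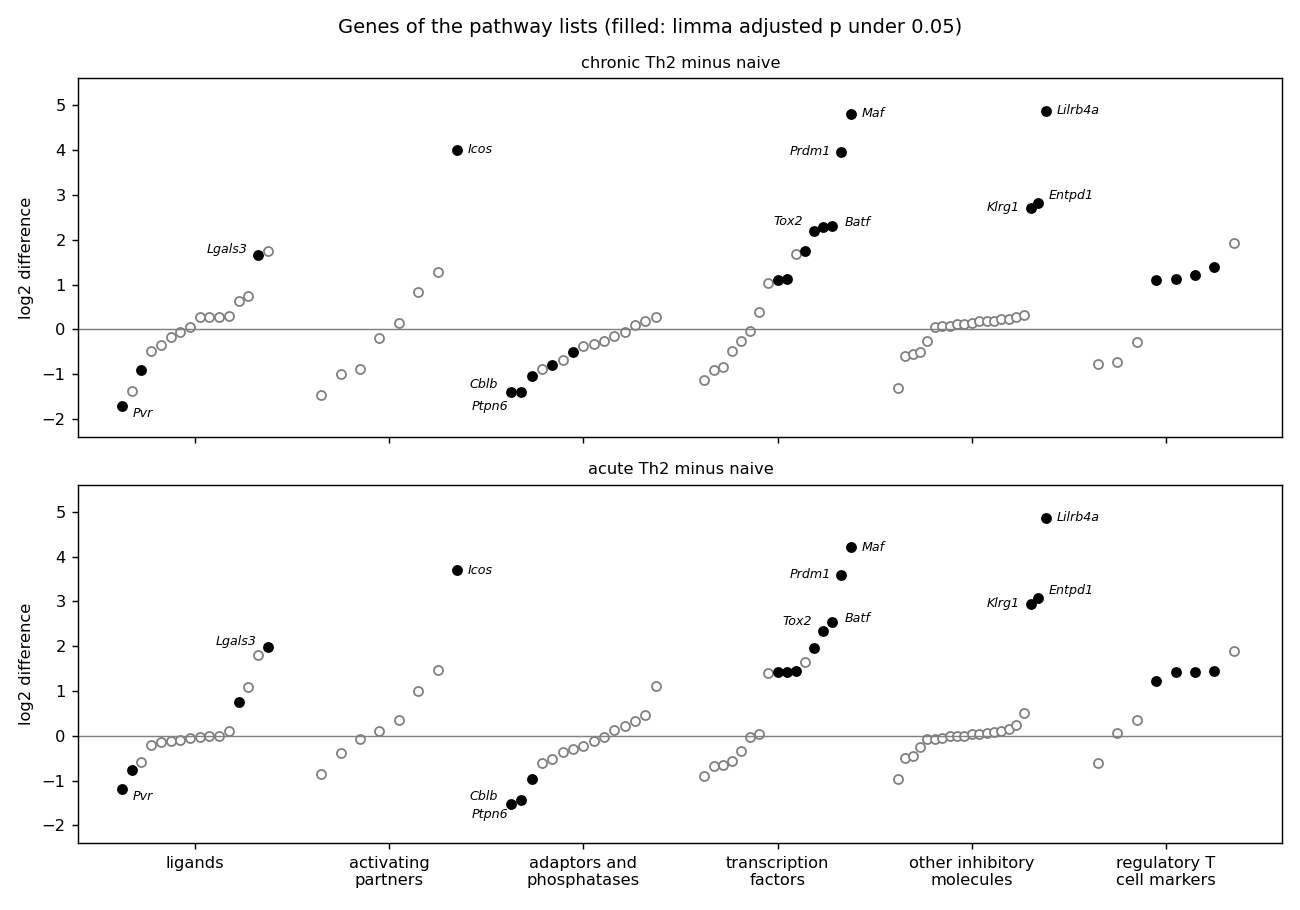
Log2 difference (y axis) of each measured gene of 6 lists (x axis), sorted within the list, for chronic Th2 minus naive cells (top) and acute Th2 minus naive cells (bottom); filled points have a limma adjusted p under 0.05. The transcription factors hold 8 filled points above 0 in each panel, and the filled adaptors and phosphatases (5 and 3) all lie below 0.

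Between chronic and acute Th2 cells, 0 genes of these 6 lists passed in limma with all 9 arrays and equal weights. With array weights, which called 33.7% of all genes, there were 10 ligands, 5 partner receptors, 6 adaptors, 8 factors, 5 further inhibitory molecules and 3 regulatory T cell markers. At an unadjusted p under 0.05 there were 3 of 16 ligands, 0 of 8 partner receptors, 3 of 15 adaptors, 3 of 17 factors, 0 of 21 further inhibitory molecules and 1 of 8 regulatory T cell markers, where 14.9% of all genes had one. The largest differences were those of Cd274 (-0.78) and Lgals9 (-0.60) among ligands, Tnfsf14 (-0.81) and Cd226 (-0.61) among partner receptors, Ap2m1 (-0.83) and Inpp5d (-0.39) among adaptors, Maf (0.60) and Tox (0.40) among factors, Pecam1 (-1.10) and Vsir (-0.33) among inhibitory molecules, and Lrrc32 (-1.07) among regulatory T cell markers. Their adjusted p ran from 0.322 to 0.616.

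The patterns nearest to Ctla4, Tigit and Havcr2 were sought among named genes only. Symbols of the Gm, Rik and LOC kinds were left out, as were the segments that build antibody and antigen receptor chains. Nearness was the smallest root mean square difference of log2 levels over the 9 arrays, with each gene's mean taken off. Nearest to Ctla4 were Tigit (0.25), Maf (0.33) and Cxcr6 (0.35), which encodes a chemokine receptor of lung T cells. Nearest to Tigit were Cxcr6 (0.21), Lilrb4a (0.24) and Ctla4 (0.25). Nearest to Havcr2 were Bmpr2 (0.23), Mid2 (0.24) and Asb2 (0.26). Among the 10 genes, Btla and Cd5 (0.28) were the next nearest pair after Ctla4 and Tigit, and Havcr2 and Lag3 lay at 0.44.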

How the data were processed

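Expression was measured on 9 arrays, 3 per group, grouped by their titles. The deposited table holds log2 intensities, which the authors normalised with RMA, per the submitters' processing notes. These also name limma. No source used here gives versions, a genome build or filters. Values were used as they are. Of 34760 probe sets, 21640 name 1 gene in the platform annotation, 1321 several and 11799 none listed. A gene was represented by its probe set with the highest mean, which gave 19937 genes.

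Group differences came from limma 3.58.1 under R 4.3.3 (lmFit, eBayes, two-sided, 3 groups, no covariates, all 9 arrays) and adjusted by Benjamini and Hochberg over all genes. The script was tested on simulated data. With 3 arrays against 3, an exact permutation cannot give a two-sided p under 0.1, and none is given. The background level of 6.53 was chosen after the data were seen.

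The members, gene lists and tests were chosen with earlier results of these data known. Named were all members, up to 4 called genes per list and comparison with the largest difference (up to 2 where none passed), and the 3 nearest patterns. Other genes named were chosen after their values were seen. One marker of the naive sort is not reported here. Replicate numbers are shared between groups. Deviations from group means were correlated for equal numbers. Between chronic and acute Th2 cells they correlated at 0.57, -0.01 and 0.40 for numbers 1, 2 and 3. Between Th2 and naive cells the correlations ran from -0.09 to 0.33. Equal numbers were not taken as pairs, and a shared effect of number between the Th2 groups cannot be left aside. Start sites and gene order are from RefSeq, GRCm38.p6. The 19 alternatives, 9 of which leave out an array, cover the replicate block, array weights, 6 arrays only, 2 arrays left out together, probe set choice, dim genes, scaling and an intensity trend.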

Additional observations from a re-analysis of the deposited data

How the results depend on the processing

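Against naive cells, the number of the 10 genes called ran from 7 to 8 in chronic Th2 and from 6 to 7 in acute Th2 cells when an array was left out, and was 8 and 7 with the replicate number as a block. Array weights gave 9 in each, and leaving out naive replicate 1 with chronic Th2 replicate 3 gave 8 and 9. Ctla4, Tigit, Havcr2, Lag3, Cd200r1 and Lilr4b were called in all 19 alternatives of both comparisons. Centring on olfactory receptor genes moves all differences by 0.41, 0.032 and 0.38 (chronic minus naive, acute minus naive, chronic minus acute), and gave 6 higher and 3 lower in chronic and 6 higher and 0 lower in acute Th2 cells. Between chronic and acute Th2 cells the count stayed at 0 when an array was left out and with the replicate block. It was 4 with array weights (Ctla4 and Lag3 higher, Btla and Cd5 lower) and 1 (Lag3) without naive replicate 1 and chronic Th2 replicate 3 together, where 5.45% of all genes were called. Chronic Th2 replicate 3 is the lowest chronic array for Lag3, so that leaving it out widens that difference by construction. The 6 gene lists then gave 5 ligands, 3 partner receptors, 1 adaptor, 4 factors, 2 further inhibitory molecules and 1 regulatory T cell marker. Array weights gave acute Th2 replicate 3 a weight of 8.23 and called 33.7% of all genes there. Of all genes, 3.44% to 23.4% were called in chronic Th2 and 3.23% to 20.2% in acute Th2 cells over these alternatives. Leaving out dim genes dropped Cd160. Signs turned only in this comparison, for genes that did not pass. Without an array, Havcr2 ran from -0.15 to 0.15, Pdcd1 from -0.22 to 0.19, Cd160 from -0.073 to 0.076, Cd200r1 from -0.25 to 0.078 and Lilr4b from -0.14 to 0.12. With array weights, Havcr2, Pdcd1, Cd160 and Lilr4b were at -0.20, -0.22, 0.088 and -0.18, and with both arrays left out at -0.15, -0.22, 0.020 and -0.14. Centred on all genes, Havcr2, Pdcd1 and Lilr4b were at -0.057, -0.021 and -0.043. Centred on olfactory receptor genes, Ctla4, Tigit, Havcr2, Pdcd1 and Lilr4b were at -0.057, -0.11, -0.37, -0.33 and -0.36. The cause was not tested. Levels under 6.53 cannot be told from background.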

Other observations

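Several of the 10 genes lie next to other genes of T cell signals, by RefSeq gene order. Ctla4 lies between Cd28 and Icos, Lag3 beside Cd4, Cd5 beside Cd6, Btla beside Cd200, Cd200r1 beside Cd200r4 and Lilr4b beside Lilrb4a. Of 20 neighbour positions, 19 were measured. In chronic Th2 cells 4 of them rose against naive cells and 0 fell, and in acute Th2 cells 3 rose and 0 fell, where 3.68% and 3.67% of all genes rose. The risers were Icos, Lilrb4a and Gtpbp8, a GTP-binding protein gene beside Cd200r1, in both comparisons, and Ptms, a prothymosin relative beside Lag3, in chronic Th2 cells (1.27, adjusted p = 0.0204, against 0.91, adjusted p = 0.0877, in acute Th2 cells). Gtpbp8 rose by 1.27 in chronic and 0.95 in acute Th2 cells (adjusted p = 0.00805 and 0.0326). Neighbours did not share the direction of the members throughout: Cd6 had differences of 0.07 and 0.23 (adjusted p = 0.799 and 0.613) beside the fall of Cd5, and Cd4 had differences of -0.19 and 0.35 (adjusted p = 0.698 and 0.689) beside the rise of Lag3.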
